A study of Mus musculus with 4 samples.

Results

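Olfactory receptor genes (symbol Olfr) and vomeronasal receptor genes (symbol Vmn) are described here for the histone mark H3K9me3 in microglia, which are macrophages that live in brain tissue. The deposited data are 2 lists of regions, one with more and one with less H3K9me3 in knockout (KO) than in control cells. A region was a member where the gene with the nearest start, or the gene that holds the region, had a symbol starting with Olfr or Vmn, pseudogenes included. This gave 54 of the 5432 listed regions, 36 at olfactory and 18 at vomeronasal receptor genes, and 53 receptor genes by nearest start.

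Microglia were sorted from the telencephalon of C57BL/6 embryos, labelled E14 in one field and E14.5 in the protocol. Control embryos, titled WT, were Arid1afl/fl, which carry floxed Arid1a, and KO embryos were Arid1acKO-Cx3cr1, a conditional knockout of Arid1a that the labels name for Cx3cr1, a gene of microglia and other myeloid cells. The product of Arid1a belongs to SWI/SNF, a complex that moves nucleosomes. CUT&Tag, in which an antibody tethers a transposase to marked chromatin, was run on 100000 cells per library with 4 libraries, 1 of H3K9me3 and 1 of control IgG for each genotype. There are thus no replicates, no difference between genotypes can be tested, and the labels do not say how many embryos were pooled. The lists give no read counts, so the depth is unknown, and they hold no expression values with which the cell type could be checked. How reads that match several near-identical receptor genes were placed is not given in the sources used here, so the choice among close copies is uncertain. Intervals in brackets are exact 95% binomial intervals unless named otherwise and cover counting error only.

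Olfactory receptors are G protein-coupled receptors that olfactory sensory neurons use to detect odours, and each neuron expresses a single receptor gene. In those neurons the silent receptor genes are packed in heterochromatin that carries H3K9me3. Vomeronasal receptors detect pheromones and related cues in the vomeronasal organ, with type 1 receptors (Vmn1r) tied to small molecules and type 2 receptors (Vmn2r), which have a long extracellular domain, to peptides and proteins. Both families lie in gene clusters with many pseudogenes. Most Olfr and Vmn1r genes are short, whereas intact Vmn2r genes are longer and have several exons.

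A listed region reached the promoter window of RefSeq's gene model, 250 bases before the start and 50 after it, at 4 of the 35 member genes with such a window. All 4 regions were in the higher list, which holds 64.2% of all listed regions, and 4 are too few to give a direction. The lower region 6 bp from a start, at Olfr1183, could not count here because that gene has no such window. The 3 windows with the longest overlap are shown 5' to 3' because there a listed region reaches a receptor gene's start or the bases just before it, and capitals mark the bases inside the listed region. Sequences and positions are from RefSeq on GRCm38.p6. The windows lie at chr17:37211802-37212101 on the minus strand (Olfr95), chr2:85923020-85923319 on the plus strand (Olfr1026) and chr7:5611264-5611563 on the minus strand (Vmn1r61).
Olfr95: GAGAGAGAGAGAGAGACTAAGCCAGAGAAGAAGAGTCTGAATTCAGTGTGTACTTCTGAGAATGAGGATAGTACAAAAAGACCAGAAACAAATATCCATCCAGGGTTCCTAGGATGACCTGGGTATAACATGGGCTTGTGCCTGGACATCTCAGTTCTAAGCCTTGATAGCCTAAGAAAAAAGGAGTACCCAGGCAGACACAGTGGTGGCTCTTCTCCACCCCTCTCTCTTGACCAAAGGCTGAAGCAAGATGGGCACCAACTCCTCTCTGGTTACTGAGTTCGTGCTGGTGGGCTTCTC
Olfr1026: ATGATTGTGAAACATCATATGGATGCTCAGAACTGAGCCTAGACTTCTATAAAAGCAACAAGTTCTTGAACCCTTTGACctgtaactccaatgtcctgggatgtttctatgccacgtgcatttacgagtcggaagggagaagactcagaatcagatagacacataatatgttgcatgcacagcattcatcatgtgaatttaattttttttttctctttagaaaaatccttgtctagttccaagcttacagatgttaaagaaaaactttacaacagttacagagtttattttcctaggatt
Vmn1r61: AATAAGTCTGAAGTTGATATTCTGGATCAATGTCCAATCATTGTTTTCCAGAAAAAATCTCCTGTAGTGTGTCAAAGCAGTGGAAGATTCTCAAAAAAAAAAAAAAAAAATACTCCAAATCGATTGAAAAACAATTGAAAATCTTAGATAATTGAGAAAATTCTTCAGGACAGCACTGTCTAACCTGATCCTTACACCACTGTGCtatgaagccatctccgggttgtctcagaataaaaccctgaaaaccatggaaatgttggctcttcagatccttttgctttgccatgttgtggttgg

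The region at Olfr95 covered the whole window, 300 bases, and with it the RefSeq start. The region at Vmn1r61 covered 205 bases and ended 46 bp before the start, and that at Olfr1026 covered 79 and ended 172 bp before it. The region at Vmn1r46 touched its window by 2 bases. Each window was searched on both strands for TAATNA, a form of the homeodomain site, and for CCCNNGGG, a form of the site of O/E (EBF) factors, both of them motifs known from olfactory receptor promoters. TAATNA was in 26.5% of all 32851 promoter windows, in 65.8% of 948 Olfr windows and in 75% of 324 Vmn windows. It was in 24 of the 35 member windows (68.6%), and of the 4 windows reached by a region it was in that of Vmn1r46 alone. CCCNNGGG was in 13.7% of all windows, in 3.06% of Olfr windows and in 7.41% of Vmn windows. It was in 1 of the 35 member windows (2.86%), that of Olfr550. The median GC content was 52.7% over all windows and 39.3% over member windows, so that the windows differ in base composition too.

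Receptor regions were found in both lists in proportions close to those of all listed regions. Of the 54 regions, 37 were higher and 17 lower in KO, or 68.5% higher (54.4 to 80.5), against 64.2% of all 5432 listed regions. Olfactory receptor regions were 23 higher and 13 lower, or 63.9% (46.2 to 79.2). Vomeronasal receptor regions were 14 higher and 4 lower, or 77.8% (52.4 to 93.6). The families therefore differed by -13.9 points, olfactory minus vomeronasal, with a 95% Newcombe interval of -34.9 to 12.8 that includes 0. Among vomeronasal genes, type 1 had 10 higher and 2 lower regions and type 2 had 4 higher and 2 lower. Pseudogenes, by symbol, had 9 higher and 3 lower regions. No receptor gene was nearest to regions of both lists, but only Olfr289-ps1 was nearest to more than 1 region and could have been.

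**Figure D1:**
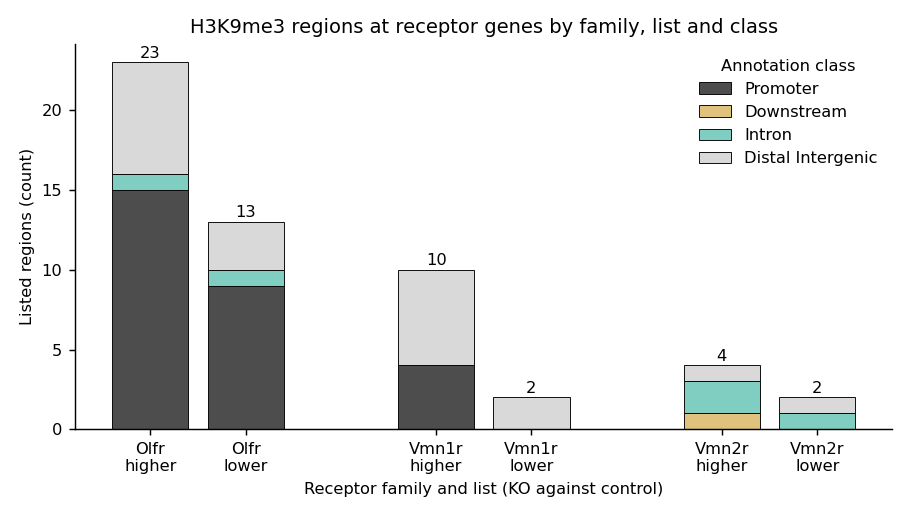
Number of listed regions (y axis) at olfactory (Olfr), vomeronasal type 1 (Vmn1r) and type 2 (Vmn2r) receptor genes, in the lists higher and lower in KO (x axis), with shades for the annotation class. Promoter regions make up 15 of the 23 higher and 9 of the 13 lower Olfr regions, and no Vmn2r region is in that class.

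The share of receptor genes with a listed region was below that of all genes. In the RefSeq gene table, 54 of 2073 receptor genes (2.60%, 1.96 to 3.39) were nearest to or held a listed region, against 8.19% of all 49997 genes. The share was 2.52% of 1428 Olfr genes, 3.22% of 373 Vmn1r genes and 2.21% of 272 Vmn2r genes. It was 2.61% (1.76 to 3.73) of 1110 Olfr genes that encode a protein and 2.21% (0.892 to 4.50) of 317 Olfr pseudogenes, with intervals that overlap. By nearest start alone, where holding a region does not count, the shares were 2.56% of receptor genes and 6.79% of all genes. Among all 10622 pseudogenes the share was 7.37%, and 7.35% by nearest start alone. Most receptor genes are short, and short genes offer less sequence to hold a region. The transcripts given for member regions had a median length of 965.5 bp, against 3841 bp for the other listed regions, and the part of length in the share was not tested.

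Distances to gene starts were short. The promoter class, within 3 kb of a start in the authors' annotation, held 28 of the 54 receptor regions, or 51.9% (37.8 to 65.7), against 12.7% of all listed regions. Olfactory receptors had 24 of 36 regions in this class (66.7%, 49.0 to 81.4) and vomeronasal receptors 4 of 18 (22.2%, 6.41 to 47.6). The median distance to the start was 2162.5 bp for Olfr, 7257.5 bp for Vmn and 20564.5 bp for the other listed regions. Of the other regions nearest to a transcript under 10 kb, 12.0% were in the promoter class. Regions of 1 pair of libraries are not replicates, so these differences have no test.

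**Figure D2:**
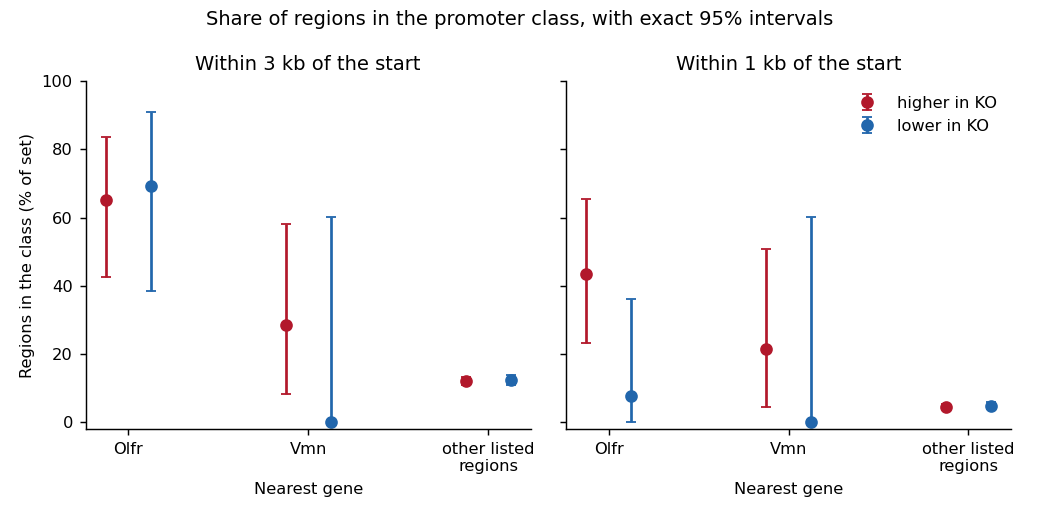
Share of regions in the promoter class (y axis, percent of the set) within 3 kb (left) and within 1 kb (right) of the start, for Olfr, Vmn and all other listed regions, by list, with exact 95% intervals. Within 3 kb the Olfr lists stand at 65.2% (higher) and 69.2% (lower), and within 1 kb the higher Olfr list stands at 43.5% and the lower at 7.69%, with intervals that overlap.

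The 3 kb share depends on which transcript sets the start. Measured from the start of the RefSeq gene, taken as the outer end of its span, 17 of 36 olfactory regions (47.2%) lay within 3 kb. The vomeronasal count was again 4. By this measure the olfactory share stayed above the vomeronasal share, 22.2%, and lay just inside the vomeronasal interval, 6.41 to 47.6. That interval is wide, with 18 regions, so lying inside it does not show that the families are alike. Of the promoter class, 7 olfactory regions lay beyond 3 kb by this measure. At 4 of these (Olfr3, Olfr1183, Olfr66 and Olfr905) the authors' transcript started farther upstream than the RefSeq gene. At the other 3 (Olfr550, Olfr91 and Olfr1408) the RefSeq gene did. The promoter windows shown earlier can use another start. That of Olfr550 lay 137 bp from its region, against 6160 bp by the span, and that of Olfr1211 lay 5510 bp away, against 1547 bp. Receptor genes are also dense. The sequence within 3 kb of a receptor gene body made up 27.7% of the receptor gene clusters, and the midpoints of 31 of the 87 listed regions in those clusters (35.6%, 25.6 to 46.6) lay in it.

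The band within 1 kb of the start was filled mostly by higher regions. Of the 37 higher receptor regions 13 were within 1 kb (35.1%, 20.2 to 52.5), and of the 17 lower regions 1 was (5.88%, 0.149 to 28.7). In the other listed regions these shares were 4.52% and 4.88%. The limit of 1 kb matters, because lower regions stood just beyond it at Olfr578 (1019 bp), Olfr1503-ps1 (1022 bp) and Olfr584 (1049 bp), as did higher regions at Olfr289-ps1 (1037 bp) and Vmn1r49 (1085 bp). By the same RefSeq gene start, the band lost higher regions at Olfr533 (2009 bp), Olfr393 (2016 bp), Olfr1057 (2543 bp), Olfr550 (6160 bp) and Olfr91 (38056 bp). It also lost its lower region, at Olfr1183 (6481 bp), while the other higher regions stayed. The split by distance was noticed in the data and has no test.

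**Figure D3:**
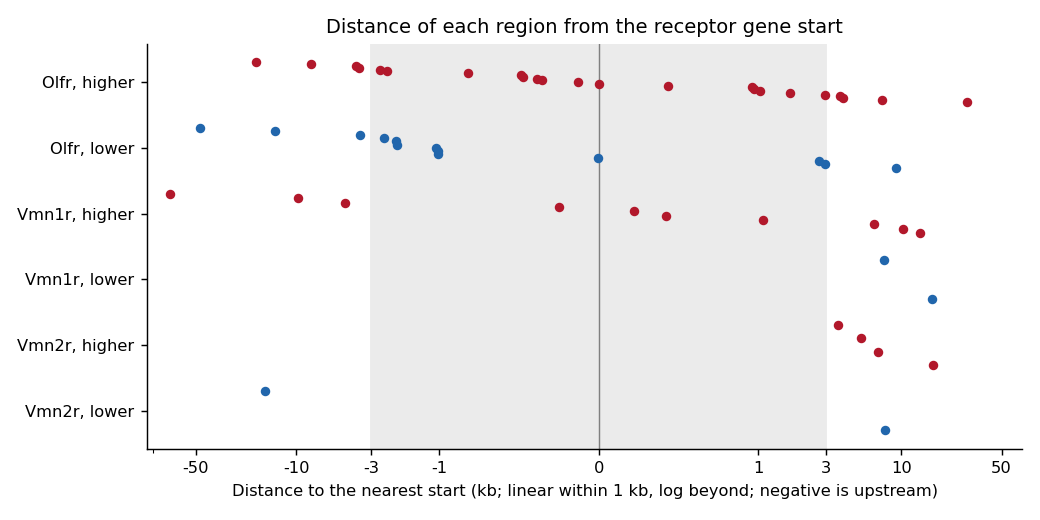
Distance of each of the 54 regions from the receptor gene start (x axis, kb, linear within 1 kb and logarithmic beyond, negative upstream), by family and list, with the 3 kb promoter window shaded. Within 1 kb of the start lie 13 of the 37 higher points and 1 of the 17 lower points, Olfr1183, 6 bp upstream.

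Class I olfactory receptors, the older branch shared with fish, form a single cluster on chromosome 7 that surrounds the beta-globin genes. All 6 member regions of class I, assigned by the MOR family number among the RefSeq synonyms, lay in this cluster, 3 higher and 3 lower. The higher regions were at Olfr550, Olfr646 and Olfr686, with authors' peak scores of 1.77, 1.48 and 2.04. The lower regions were at Olfr578, Olfr584 and Olfr66, with scores of 3.92, 2.47 and 2.22. From the centromere side outward the order was Olfr550 higher, then Olfr578, Olfr584 and Olfr66 lower, then Olfr646 and Olfr686 higher. The globin genes lie between Olfr584 and Olfr66, and the Olfr66 region, on chromosome 7 from 103888232 to 103888807, was 35.0 kb from Hbb-y, an embryonic beta-like globin gene. The Olfr646 region lay in an intron of its neighbour Olfr643.

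The peak score is the authors' own, its scale is not stated, and it ranks regions within a list only. Whether it reflects the size of the change is not given, so it is not read as such. The median score of receptor regions was 2.52 in the higher list, equal to the median of the whole list, 2.52. In the lower list it was 3.13 against 2.66. Of the receptor regions 19 of 37 higher and 11 of 17 lower reached the median of their list, as did, because of ties, 56.4% and 51.3% of all regions in these lists. The 90th percentile was reached by 4 higher and 2 lower receptor regions. Scores came in steps, and 534 regions of the higher list shared 1.95 with those at Olfr1025-ps1, Vmn2r4, Olfr456 and Vmn1r230.

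**Figure D4:**
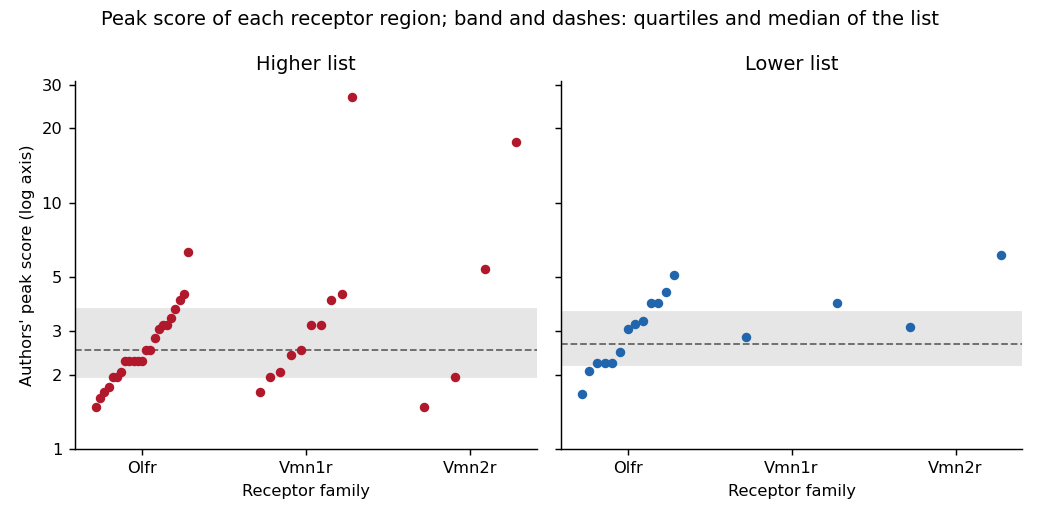
Authors' peak score (y axis, log scale) of each receptor region by family, in the higher list (left) and the lower list (right), with the median (dashes) and quartiles (band) of the whole list. Most points lie within or near the band, and the highest are Vmn1r-ps2 at 26.9 and Vmn2r125 at 17.6.

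Class II olfactory receptors, the larger land-vertebrate branch, had 16 higher and 9 lower regions, and 5 further Olfr regions had no MOR number to assign a class. The highest score of an olfactory receptor region was 6.31 at Olfr533, above 95.7% of the higher list. It lay inside the authors' transcript, 435 bp from its start, on chromosome 7 from 140463827 to 140464194. In the same cluster an Olfr61 intron was lower (2.22) and a region 2325 bp upstream of Olfr45 was higher (2.52). Olfr61 and Olfr45 are both of family MOR253 and their regions lay 53.9 kb apart, so neighbours of 1 family were in opposite lists.

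The largest receptor cluster, on chromosome 2 from Olfr987 to Olfr1274, holds 293 receptor genes and had 5 higher and 1 lower member regions. Olfr1025-ps1 and Olfr1026, neighbours of family MOR196, had higher regions 5.71 kb apart, 818 and 131 bp upstream of their starts, with scores of 1.95 and 2.27. Farther on, the higher region at Olfr1057 (4.01) lay over the start of the transcript and that at Olfr1083-ps (2.27) was 3842 bp upstream. The lower region was at Olfr1183, with the highest score of a lower Olfr region, 5.08, on chromosome 2 from 88454551 to 88454861. The start it adjoins is that of a long transcript, and the RefSeq gene begins 6481 bp away. Olfr1211, 481 kb beyond, was higher (3.18).

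A smaller cluster elsewhere on chromosome 2 was lower at both its member regions, Olfr3 (2.08) and Olfr355 (3.31). Olfr1287 in another cluster of that chromosome was higher (3.69). In the extended major histocompatibility region of chromosome 17, the regions at Olfr91 (2.27) and Olfr95 (4.23) were both higher. On chromosome 9 all 3 regions, at Olfr830 (3.39), Olfr905 (2.82) and Olfr948 (2.52), were higher, as were both on chromosome 11, at Olfr30 (1.61) and Olfr393 (3.06).

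On chromosome 19, Olfr1421-ps1 was higher (2.27) and Olfr1451 (1.66) and Olfr1503-ps1 (2.22) were lower. Lower regions were also found at Olfr1408 on chromosome 1 (3.21), and at Olfr1350 (3.07) and Olfr493 (3.91) on chromosome 7. Higher regions lay at Olfr1332-ps1 on chromosome 4 (1.69) and Olfr456 on chromosome 6 (1.95). The lone pseudogene Olfr289-ps1 on chromosome 3, with no other gene within 100 kb, was nearest to 2 higher regions (3.17 and 2.27) that lay 27.2 kb apart. It was the only receptor gene nearest to more than 1 region. Another lone pseudogene, Olfr717-ps1 on chromosome 13, had a lower region (4.32) at a distance of 46786 bp.

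Of the 12 vomeronasal type 1 receptor regions, 8 were intergenic (66.7%, 34.9 to 90.1), against 47.4% of all listed regions. The other 4 were promoter regions in the higher list. Those promoter regions belonged to Vmn1r46 (4.23), Vmn1r61 (3.18), Vmn1r-ps135 (2.52) and Vmn1r49 (2.04). Vmn1r49, formerly V1rb2, is known to respond to a ketone of mouse urine. In its cluster on chromosome 6 the neighbour Vmn1r41 was lower (2.86) and Vmn1r46 and Vmn1r49 were higher. On chromosome 7, Vmn1r56 (4.02) and Vmn1r61 were higher and Vmn1r63 was lower (3.91). Vmn1r56 and Vmn1r63 both belong to the V1rd group by their synonyms, so this group too was in both lists. Vmn1r74 (1.69), Vmn1r113 (3.18), Vmn1r230 (1.95) and Vmn1r238 (2.41) were higher, the last at 75574 bp from its start, the longest distance of a receptor region.

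Of the 6 regions at vomeronasal type 2 receptor genes, 3 lay in introns (50.0%, 11.8 to 88.2), against 35.8% of all listed regions. Vmn2r100 had a lower region in intron 1, scored 6.13, on chromosome 17 from 19512445 to 19512848, the top score of a lower receptor region and above 95.3% of that list. Its neighbour Vmn2r-ps119 was lower too (3.13), at 387 kb. Intron regions of Vmn2r118 (1.48) and Vmn2r4 (1.95) were in the higher list, the former among its lowest scores. Vmn2r-ps61 had a higher region (5.39) in the stretch downstream of genes.

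The regions that ranked highest lay at both ends of chromosome 4. Vmn1r-ps2, near the proximal end, had a region of score 26.9 from 3089606 to 3091142, 1537 bp wide, the widest receptor region, at rank 15 of 3488 in the higher list. Vmn2r125, the last gene of the chromosome in the RefSeq table, which lists it as a pseudogene, had a region of score 17.6 at rank 19, from 156356805 to 156357300. Both regions were intergenic and at 13450 and 6884 bp from the start. The third highest receptor score in the higher list was 6.31, so these stood far from the other receptor regions. The Vmn2r125 region also bears on the coordinates, because it lies beyond the end of chromosome 4 in mm9, the build that the submitters name. Coordinates were therefore read as GRCm38.

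Joined along the chromosomes within 1 Mb, 34 of the 54 regions fell into 12 groups of 2 or more, and 20 stood alone. Of the 12 groups, 4 were all higher, 2 all lower and 6 held both directions. Chromosome 7 had 17 regions, 10 higher and 7 lower, and also the most receptor genes, 575. Chromosome 2 had 9 regions for 379 genes. Chromosomes 10, 14 and 16, which have 89, 47 and 48 receptor genes, had no member region. Neither did chromosomes 5, 8, 12 and 15, with 22, 9, 3 and 12 receptor genes, nor X or Y. Only 2.60% of all receptor genes had a listed region, so these absences are not read as a result.

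Clusters of receptor genes were also examined whole, whatever gene a region was assigned to. The 69 clusters of at least 2 receptor genes, joined within 1 Mb, span 69.3 Mb and held 87 listed regions, 53 higher and 34 lower (60.9% higher, 49.9 to 71.2). That is 1.26 regions per Mb (exact Poisson 95% interval 1.01 to 1.55), against 2.02 per Mb over the remainder of the chromosomes. Assembly gaps and the mappability of these repeated genes were not analysed. Of the 87 regions, 46 were member regions and 41 belonged to other genes, 23 higher and 18 lower. Among these were the immune genes Ifi206 and Ifi208, both lower, on chromosome 1, Trim5 and Trim6, both higher, and Trim68, lower, among the class I receptors, and Rnase6, with a region in each list, on chromosome 14. The chromosome 14 cluster had 6 listed regions and no member region. The 8 member regions outside these spans were 7 higher and 1 lower, where 64.2% of all listed regions were higher. Those nearest to Vmn1r-ps2, Vmn2r125 and Vmn1r238 lay beyond the outermost gene of clusters of 4, 2 and 3 receptor genes. They are thus outside the spans but not far from clusters by gene. The rest were nearest to receptor genes that stand alone.

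**Figure D5:**
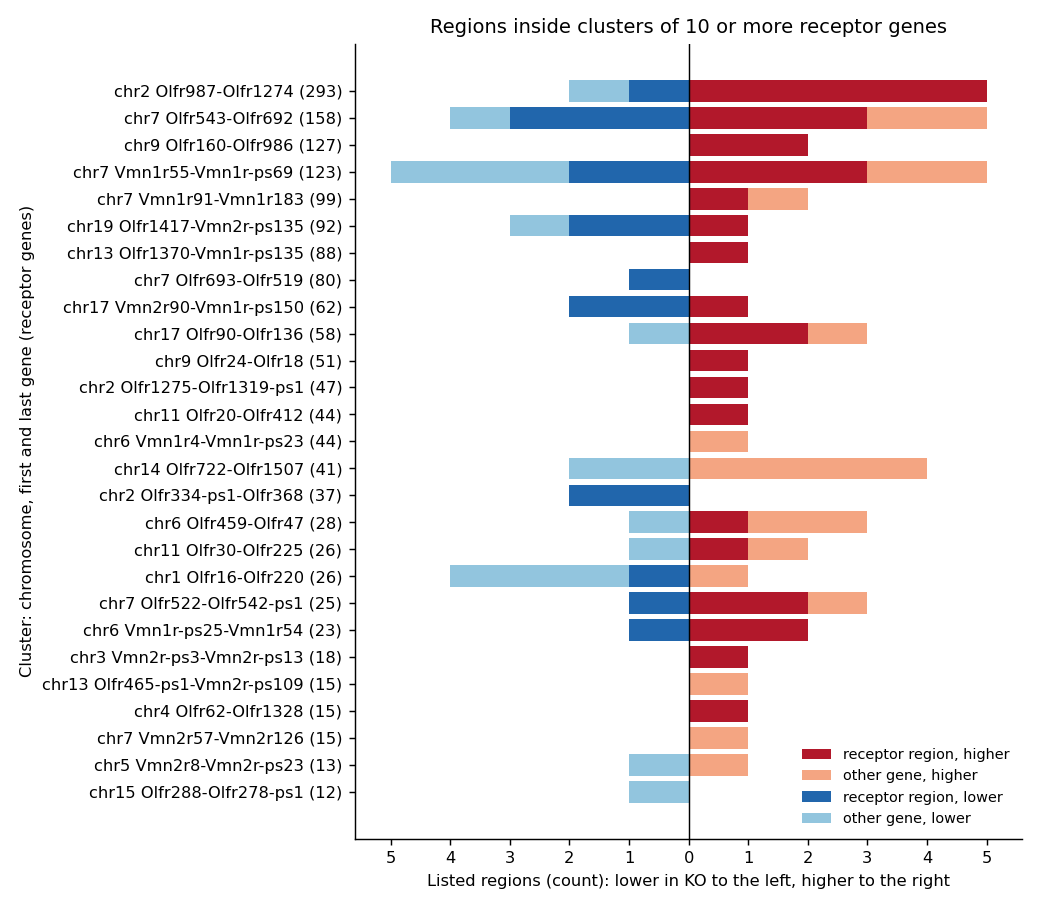
Listed regions (x axis, count; lower in KO to the left, higher to the right) in the 27 clusters of at least 10 receptor genes that held any, named by chromosome and first and last gene with the number of receptor genes. Dark bars are receptor regions and pale bars regions of other genes; clusters with several regions mostly extend to both sides.

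A wider list of 142 related genes was counted in the same way, 100 of them taken as families by symbol prefix. It held genes of odour and pheromone detection and of receptor choice. It also held taste and trace amine receptors, the Ms4a and H2-M families, and general H3K9me3 genes such as Setdb1. Of the 142 genes, 11 (7.75%) were nearest to or held a region, against 8.19% of all genes. Their regions were 6 higher and 6 lower, where 64.2% of all listed regions were higher. Intergenic regions nearest to the taste receptor genes Tas2r118 (4.02) and Tas2r114 (1.95) were higher, at -61059 and -89726 bp from the starts. The intergenic region nearest to Tas2r144 was lower (2.30), at 9794 bp. Taar8b, a trace amine receptor, had a higher region at -2069 bp from its start (1.48). Ebf2, which encodes an O/E factor, held a higher (3.17) and a lower (2.30) intron region, and Ebf1 held a lower one (1.73). Trim66, a chromatin regulator of olfactory receptor choice, held a higher region in intron 1 (2.04). Cbx5, which encodes the H3K9me3 reader HP1 alpha, had a lower region 864 bp from its start (2.08). Ms4a14 (2.77) and Ms4a4a (2.22), of a family with members that serve as chemoreceptors, were lower. The region nearest to Ano2, the olfactory chloride channel, lay in an intron of Vwf (3.39, higher). The odour transduction genes Gnal, Adcy3, Cnga2 and Omp had no region in either list.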

How the data were processed

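H3K9me3 and IgG CUT&Tag libraries, 1 of each per genotype, were amplified from sorted microglia over 14 PCR cycles, per the labels' protocols. Bowtie2 2, CASAVA 1.4, mm9 and FastQC are listed, with no role or order, per the submitters' processing notes. Not given in the sources used here: how peaks were called and annotated, what put a region on a list, and how IgG was used. Each deposited row holds a peak score of unstated scale set by the authors, with a position, width, class, nearest gene, transcript and distance to its start, per the file headers. The lists hold 3488 higher and 1944 lower regions, numbered up to 6359, and 927 numbers in neither list were not analysed here.

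Members were found by symbol. All 54 matched a RefSeq gene of GRCm38.p6 that the given transcript overlaps, 53 by symbol and 1 by synonym. The members, the gene lists and the groupings were chosen with earlier results of these data known. Values in full were meant for the 10 highest scores, promoter, exon and downstream regions, regions inside receptor genes, genes with several regions and clusters with at least 3, and all other members are also named. Shares have exact Clopper-Pearson intervals. Fisher's exact test, foreseen between the families, is not given because regions of 1 pair of libraries are not replicates, and an interval of the difference stands in its place. Class I was taken as MOR families up to 42. Alternatives changed the assignment to genes, the score limit, merging, pseudogenes, distances, chromosomes and the start used. Software was matplotlib 3.10.9, scipy 1.17.1, pandas 2.3.3 and numpy 2.4.6 under Python 3.11.15, and member selection and grouping were tested on simulated data.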

Additional observations from a re-analysis of the deposited data

How the results depend on the processing

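Over 54 alternatives to 10 results, 53 left the value inside the 95% interval of the main value, or a count within 1.5 times. For the share higher, nearest start alone and autosomes alone kept all 54 regions, so the value could not move. Most other alternatives were subsets of the same regions set against wide intervals, so this count is weak evidence of stability. The share higher of receptor regions ranged from 60.0% to 68.5%, of olfactory regions from 50.0% to 63.9% and of vomeronasal regions from 66.7% to 78.6%. The lowest receptor and olfactory shares came from regions held by a receptor gene, of which there are 5. The difference between the families ranged from -17.9 to -11.3 points. Groups of member regions numbered 11 when joined within 500 kb or 2 Mb, and other regions in clusters 30 when genes were joined within 500 kb. The exception was the promoter share of olfactory regions, which moved from 66.7% to 47.2% with the start of the RefSeq gene, an alternative chosen after seeing the data. The alternatives on the promoter share and the one that kept only regions inside gene clusters were also chosen then. Leaving out a replicate was not possible with 1 library per group. No paired analysis was possible because no group has a second replicate. With no read counts, what depth limits cannot be measured.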
